A study of Homo sapiens with 12 samples.

Results

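The FOX, SOX, GATA and KLF factors are 4 families of DNA-binding transcription factors, described here in 4 untreated human ovarian cancer cell lines. Members were taken by gene symbol from the array's annotation (FOX with a letter A to S and a number, SOX or KLF with a number, GATA with a digit, antisense genes left out and a pair of SOX genes not included), which gave 79 of the 19775 genes measured: 39 FOX, 17 SOX, 6 GATA and 17 KLF genes. The lines were IGROV1, TOV112D (T112D in the sample labels) and TOV21G, grown in RPMI medium, and SKOV3, grown in DMEM, all with fetal calf serum (FCS) and none treated. Each line had 3 Affymetrix U133 Plus 2.0 arrays, 12 in all, and nothing in the labels says that the 3 came from separate cultures, so p-values measure only the spread between arrays, which may be technical. TOV21G is known as a clear cell and TOV112D as an endometrioid ovarian carcinoma line, and there is no normal tissue among the samples. Values are log2 expression after robust multi-array averaging (RMA), so a difference of 1 is a 2-fold difference, and values of about 2 to 3 are the lowest the scale gives in practice.

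SKOV3 is known for an amplified ERBB2 gene, but ERBB2 was at 8.14 ± 0.09 (SD, n = 3) in the SKOV3-labelled arrays, the lowest of the 4 lines, against 8.48 to 9.01 elsewhere. The group is therefore called the SKOV3-labelled arrays, and what is said of it concerns these arrays, not the line of that name. It also differs from the rest in culture medium. Of the 5 epithelial markers EPCAM, KRT8, KRT18, KRT19 and CDH1, all were high in IGROV1 (10.21 to 12.17), while in TOV112D all lay between 3.02 and 6.29. The SKOV3-labelled arrays had the highest KRT8 and KRT18 (11.75 and 12.62), but EPCAM, KRT19 and CDH1 at 2.76 to 3.41. TOV21G had KRT18 at 11.37, KRT8 at 8.61, EPCAM at 7.79, CDH1 at 4.20 and KRT19 at 4.05. PAX8, the lineage factor of Mullerian epithelium, stood at 10.26 in IGROV1 and 10.04 in TOV21G, with 7.12 in the SKOV3-labelled arrays and 6.96 in TOV112D. The other Mullerian markers gave other orders. WT1 was highest in the SKOV3-labelled arrays, at 8.89, with 7.89 in IGROV1, 5.49 in TOV21G and 3.29 in TOV112D, MSLN was highest in IGROV1, at 7.30, with 5.55 or less elsewhere, and EMX2 stayed between 2.14 and 2.35. The granulosa cell genes FSHR, INHA and CYP19A1 stayed between 2.64 and 3.80 in every line, below the median of all values (4.44). The correlation over all genes was 0.9972 to 0.9976 within a line and 0.8892 to 0.9395 between lines.

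FOX proteins bind DNA through the forkhead domain, and members such as the FOXA factors can open closed chromatin. SOX proteins bend DNA through an HMG box. GATA factors read GATA motifs through zinc fingers, and KLF proteins read GC-rich and CACCC motifs through zinc fingers shared with the SP factors. All 4 families set cell identity in development, and in the female reproductive tract FOXL2 marks granulosa cells, FOXJ1 ciliated cells of the oviduct, and GATA4 and GATA6 act in gonadal cells and endoderm.

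Members of all 4 families differed between the lines. By an F test over the line means (limma, adjusted p under 0.05) with at least 1 on the log2 scale between the highest and lowest line, 39 of 79 members varied (49.4%), against 34.4% of all genes: 15 of 39 FOX, 10 of 17 SOX, 3 of 6 GATA and 11 of 17 KLF genes. The median range of line means was 0.997 for the members and 0.638 for all genes. In every line 21 members stayed below the median of all values, among them SOX14 and SOX18, which varied. The heatmap of members that varied shows the 4 profiles side by side.

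**Figure D1:**
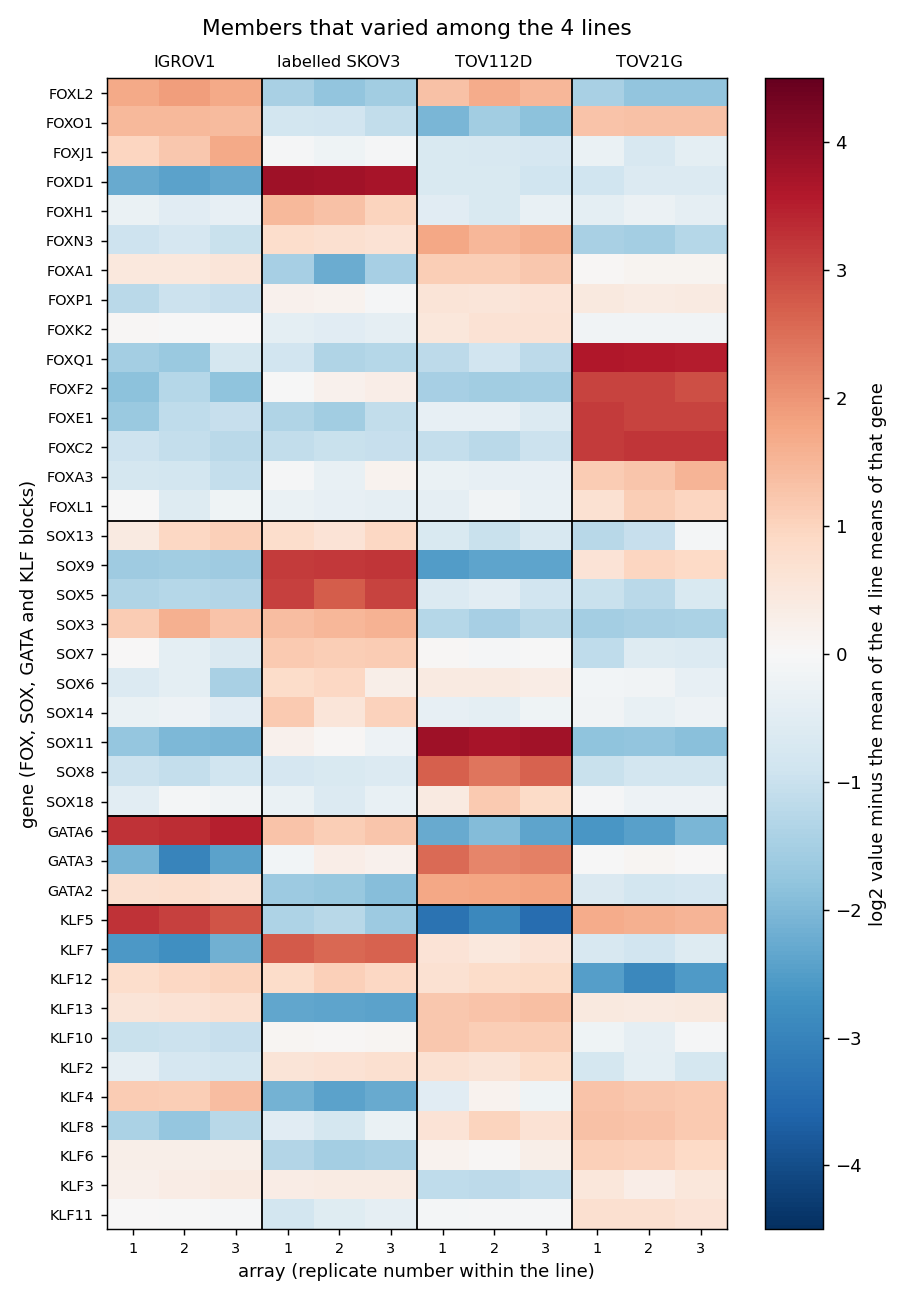
Heatmap of the 39 members that varied among the lines. Columns are the 12 arrays, grouped by line, rows are genes in FOX, SOX, GATA and KLF blocks, and colour is the log2 value minus the mean of the 4 line means of that gene. TOV21G carries the high FOXQ1, FOXF2, FOXE1 and FOXC2 values, the SKOV3-labelled arrays the high FOXD1, SOX9, SOX5 and KLF7 values, TOV112D the high SOX11, SOX8 and GATA3 values, and IGROV1 the high GATA6 and KLF5 values.

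Each line was then set against the mean of the other 3. Calls required an adjusted p under 0.05 and 1 or more on the log2 scale, and a member counted as set apart where the line differed from every other line that way, all in 1 direction. In IGROV1 9 members were called higher and 17 lower, where 7.20% and 7.10% of all genes were. In the SKOV3-labelled arrays 11 were higher and 11 lower (6.53% and 8.01% of all genes), in TOV112D 12 and 10 (7.03% and 7.64%), and in TOV21G 12 and 10 (7.09% and 5.15%). With probe sets averaged per gene in place of the brightest one, the calls went from 26 to 16 in IGROV1 and from 22 to 14 in TOV21G. The share of all genes called with averaged probe sets is not given here, so these counts have no background beside them.

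In all, 28 members were set apart in at least 1 line (35.4%, against 16.5% of all genes). IGROV1 had 7 of them (4.47% of all genes), the SKOV3-labelled arrays 12 (5.37%), TOV112D 7 (5.38%) and TOV21G 7 (3.33%). By direction, IGROV1 had 3 higher and 4 lower (2.62% and 1.85% of all genes), and TOV21G 6 and 1 (2.37% and 0.956%). All 6 members set apart as higher in TOV21G were FOX genes, while in TOV112D no FOX gene was set apart in either direction. In the SKOV3-labelled arrays 6 of 17 SOX genes were called higher and 0 lower, and in IGROV1 2 were higher and 5 lower. Differences between the families were not tested.

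TOV21G held 6 FOX genes at levels that no other line reached. FOXQ1, a forkhead factor linked to epithelial plasticity, read 8.23, 8.21 and 8.17 on the TOV21G arrays and 2.95 to 3.84 on the other 9. It was higher by 4.76 ± 0.17 (SE, limma, adjusted p = 1.5e-10). FOXF2, a factor of gut and lung mesenchyme, read 7.96, 7.94 and 7.81 in TOV21G and 3.06 to 5.22 elsewhere, higher by 3.999 ± 0.11 (adjusted p = 1.5e-11). It stood at 5.07 in the SKOV3-labelled arrays, which was 1.69 ± 0.13 above TOV112D (adjusted p = 2.5e-07), so its order had TOV21G first and these arrays next.

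FOXC2, a regulator of lymphatic vessels and mesenchyme, read 7.25, 7.33 and 7.31 in TOV21G and 2.89 to 3.17 on the other arrays (higher by 4.27 ± 0.06, adjusted p = 1.5e-13, and by 2.47 with the mean of its probe sets). FOXE1, the thyroid forkhead factor, read 7.05, 6.95 and 6.93 against 2.24 to 3.55 (higher by 4.10 ± 0.13, adjusted p = 5.6e-11, and by 2.02 with the mean). None of these 4 genes had a TOV21G array within the range of the others. FOXA3, a liver and gut pioneer factor, differed less: its TOV21G arrays read 6.46, 6.55 and 6.83 and the others 4.22 to 5.48 (higher by 1.75 ± 0.11, adjusted p = 3.3e-08). FOXL1, a gut mesenchyme factor, read 5.39, 5.83 and 5.67 against 4.12 to 4.69 (higher by 1.23 ± 0.12, adjusted p = 1.8e-06). With the mean of its probe sets FOXL1 fell under the minimum for a call, at 0.68.

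Of these genes, 4 lie in FOX gene clusters by RefSeq's gene order (GRCh38.p14). FOXQ1 and FOXF2 are on chromosome 6 with 1 protein-coding gene model between them, and FOXC1, the next protein-coding gene after FOXF2, was not analysed here. FOXC2 and FOXL1 are neighbours on chromosome 16. FOXF1, separated from FOXC2 by MTHFSD alone among protein-coding genes, did not share the pattern: its TOV21G arrays read 3.24, 3.39 and 3.45 against 2.70 to 3.30, a difference of 0.36 ± 0.10 (adjusted p = 0.0085) under the minimum for a call, and 1 of these arrays overlapped the others. The other neighbours measured in the chromosome 16 group, MTHFSD and the noncoding FENDRR, were at 4.92 and 4.87 in TOV21G and at 5.07 to 5.40 and 4.96 to 5.11 elsewhere. On chromosome 6 the noncoding FOXCUT stayed between 4.75 and 4.93 in all lines. GMDS, the fucose synthesis gene beyond FOXC1, was at 7.81 in TOV21G, 7.57 in IGROV1, 6.97 in the SKOV3-labelled arrays and 5.75 in TOV112D.

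The 4 of these 6 FOX genes with an entry in RefSeq's promoter table are shown to let their upstream sequences be compared. Each is the 250 bases before the annotated start, on build GRCh38.p14 and the plus strand: FOXQ1 at chr6:1311848-1312097, FOXF2 at chr6:1389326-1389575, FOXE1 at chr9:97852976-97853225 and FOXA3 at chr19:45864076-45864325. Capitals mark the GC box GGGCGG or its reverse complement CCGCCC, the letters that KLF and SP factors read.
FOXQ1: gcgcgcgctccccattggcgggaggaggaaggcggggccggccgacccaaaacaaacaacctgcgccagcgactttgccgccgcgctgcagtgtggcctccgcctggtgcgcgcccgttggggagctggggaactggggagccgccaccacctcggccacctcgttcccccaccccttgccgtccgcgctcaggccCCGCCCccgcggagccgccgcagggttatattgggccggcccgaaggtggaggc
FOXF2: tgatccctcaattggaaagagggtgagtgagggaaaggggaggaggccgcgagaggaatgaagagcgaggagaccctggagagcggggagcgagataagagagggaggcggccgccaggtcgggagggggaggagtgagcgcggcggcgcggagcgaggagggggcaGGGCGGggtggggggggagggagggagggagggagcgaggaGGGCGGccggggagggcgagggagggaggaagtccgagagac
FOXE1: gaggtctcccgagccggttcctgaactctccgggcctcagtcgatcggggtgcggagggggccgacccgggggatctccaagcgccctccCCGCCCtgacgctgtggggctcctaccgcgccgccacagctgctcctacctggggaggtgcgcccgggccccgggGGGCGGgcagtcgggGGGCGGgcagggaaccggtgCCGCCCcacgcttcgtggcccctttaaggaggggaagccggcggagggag
FOXA3: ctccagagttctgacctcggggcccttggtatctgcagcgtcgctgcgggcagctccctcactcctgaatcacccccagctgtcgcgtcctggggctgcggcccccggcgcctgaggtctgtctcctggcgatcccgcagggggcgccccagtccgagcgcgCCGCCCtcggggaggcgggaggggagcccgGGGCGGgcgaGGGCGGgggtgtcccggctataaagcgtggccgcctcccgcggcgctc
All 4 windows were GC-rich, at 74.0%, 70.8%, 75.6% and 75.2%, against a median of 58.0% over 35116 RefSeq windows of the same length. Over the 90 member windows the median was 65.8%. They held 1, 2, 4 and 3 GC boxes. A GC box on either strand occurred in 42.6% of all windows and in 53 of 90 windows of 57 members (58.9%). The forkhead core TGTTTA (or TAAACA) was in none of the 4, and was in 11% of all windows and 13.3% of member windows. The SOX core ACAAAG (or CTTTGT) was in none either, and in 13.7% of all and 12.2% of member windows. The GATA core AGATAA (or TTATCT) was in the FOXF2 window alone of these 4, and in 9.17% and 6.67%. The CACCC letters CCACCC (or GGGTGG), which can overlap a GC box, were in the FOXQ1 and FOXF2 windows, and in 31.3% and 33.3%.

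**Figure D2:**
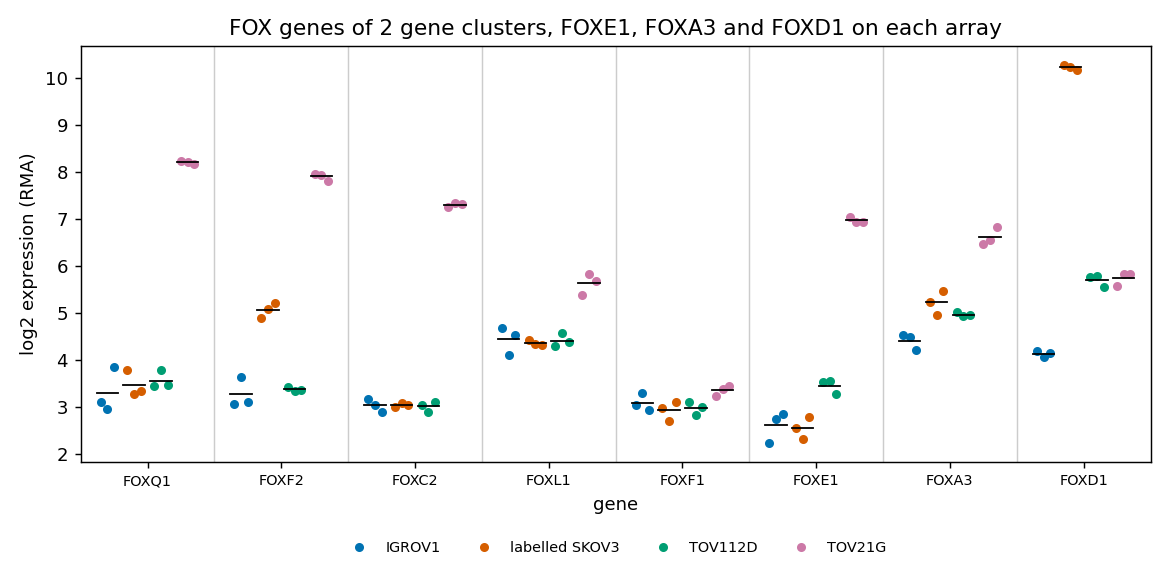
FOX genes on each array. Points are single arrays coloured by line, black bars are the means of 3 arrays, and the y axis is log2 expression, to be compared between lines within a gene only. FOXQ1, FOXF2, FOXC2, FOXL1, FOXE1 and FOXA3 have their highest points in TOV21G, FOXF1 stays between 2.70 and 3.45, and FOXD1 is highest in the SKOV3-labelled arrays.

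Outside TOV21G the FOX gene with the widest range was FOXD1, a factor of kidney stroma. It read 10.28, 10.24 and 10.17 in the SKOV3-labelled arrays and 4.20, 4.06 and 4.14 in IGROV1, with TOV112D and TOV21G between 5.55 and 5.84. These arrays were higher than the mean of the other lines by 5.04 ± 0.07 (adjusted p = 5.8e-14). IGROV1 was set apart as lower, by -3.09 ± 0.07 (adjusted p = 3.6e-12), and by -1.59 when the SKOV3-labelled arrays were left out. FOXH1, the partner of SMAD proteins in nodal signalling of the early embryo, read 6.83, 6.68 and 6.38 in the SKOV3-labelled arrays and 4.70 to 5.11 on all others (higher by 1.68 ± 0.10, adjusted p = 1.4e-08).

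Tissue-specific FOX genes split the lines in other ways. FOXL2 was at 6.35 ± 0.11 (SD) in IGROV1 and 6.07 ± 0.19 in TOV112D, and at 2.98 ± 0.16 and 2.91 ± 0.18 in the SKOV3-labelled arrays and TOV21G. The members of each pair were not separated by the test (differences of 0.28 ± 0.12 and 0.07 ± 0.12 (SE), adjusted p = 0.067 and 0.67), and the arrays of the high pair did not overlap those of the low pair. FOXJ1 read 6.48, 6.70 and 7.20 in IGROV1 and 4.74 to 5.45 elsewhere (higher by 1.72 ± 0.13, adjusted p = 1.4e-07). FOXA1, the pioneer factor of hormone-dependent epithelia, read 3.15, 2.41 and 3.18 in the SKOV3-labelled arrays and 4.72 to 5.88 on the others. It was lower there by -2.33 ± 0.13 (adjusted p = 9.3e-09), and by -1.46 with the mean of its probe sets, and TOV112D was the highest line at 5.81.

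Among broadly expressed FOX genes, FOXO1 and FOXN3 differed most. FOXO1, a factor held in check by AKT, stood at 7.86 ± 0.02 (SD) in IGROV1 and 7.71 ± 0.02 in TOV21G, against 5.48 ± 0.14 in the SKOV3-labelled arrays and 4.59 ± 0.24 in TOV112D. IGROV1 and TOV21G were not separated (0.15 ± 0.11 (SE), adjusted p = 0.29). FOXN3, a checkpoint-related repressor, ran in another order, with 9.46 in TOV112D, 8.56 in the SKOV3-labelled arrays, 6.96 in IGROV1 and 6.43 in TOV21G, each step passing the test. FOXP1 read 6.20, 6.43 and 6.38 in IGROV1 and 7.34 to 8.02 elsewhere (lower by -1.43 ± 0.07, adjusted p = 1.6e-09). With the mean of its probe sets that difference was -0.60, under the minimum for a call. FOXK2 ranged from 7.50 in the SKOV3-labelled arrays to 8.56 in TOV112D. By another FOXK2 probe set IGROV1 was lowest, at 7.26, with 7.51 in TOV21G, 8.04 in the SKOV3-labelled arrays and 8.73 in TOV112D.

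The other 24 FOX genes did not vary by this rule, and 12 of them were below the median of all values in every line: FOXA2, FOXB1, FOXD2, FOXD3, FOXD4, FOXE3, FOXF1, FOXI1, FOXN1, FOXR1, FOXR2 and FOXS1. Those above it included FOXJ3, with 9.11 to 9.44 on all 12 arrays, and FOXO3, the stress-responsive relative of FOXO1, at 9.85 in IGROV1, 9.80 in the SKOV3-labelled arrays, 9.41 in TOV112D and 9.10 in TOV21G. FOXJ2, FOXK1, FOXN2, FOXN4, FOXO4, FOXO6, FOXP2, FOXP3 and FOXP4 had ranges of 0.24 to 0.95. FOXM1, the mitotic forkhead factor, came just under the minimum, with a range of 0.997 and line means of 9.11, 9.94, 9.81 and 8.94 in IGROV1, the SKOV3-labelled arrays, TOV112D and TOV21G, by a probe set whose suffix, _x_at, marks possible cross-hybridisation.

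Target genes of FOXM1 and FOXO factors were read from lists. Of 15 FOXM1 targets, such as CCNB1, PLK1 and BIRC5, the only one called was CDC25B, lower in the SKOV3-labelled arrays (8.89 against 9.67 to 10.17 elsewhere, a difference of -1.01). Its call ended with centred or quantile-normalized arrays and without TOV21G replicate 2, each of which left 0 calls there, with 13 of the 15 at an unadjusted p under 0.05 in the limma fit of all arrays. The list's medians ran from -0.17 to 0.11, against -0.02 to 0.01 over all genes. FOXO targets were more spread: of 18 measured, 6 were higher and 4 lower in IGROV1, 4 and 5 in the SKOV3-labelled arrays, 1 and 5 in TOV112D, and 6 and 0 in TOV21G. The 10 calls of IGROV1 became 6 with the mean of the probe sets, and the 6 of TOV112D became 10 without the SKOV3-labelled arrays. Their median difference was 0.58 in TOV21G, -0.01 in IGROV1, -0.11 in the SKOV3-labelled arrays and -0.85 in TOV112D. Over all genes it was -0.02 to 0.01, and 5.15% to 8.01% were called per direction in a line. The 4 lower in IGROV1 were SESN3, IRS2, INSR and BCL6, by -1.36, -1.79, -1.01 and -1.95. TXNIP, a thioredoxin inhibitor, stood at 9.19 in IGROV1 and 6.90 in TOV21G, against 5.33 in the SKOV3-labelled arrays and 5.15 in TOV112D. CCNG2, a cyclin of quiescent cells, was at 9.37 in IGROV1 and 8.54 in TOV21G, against 7.13 in TOV112D. CAT, the catalase gene, was at 3.44 in the SKOV3-labelled arrays and at 9.15 to 10.73 elsewhere, and SESN3 went the other way, at 8.67 there and 3.64 to 6.93 elsewhere.

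Among the GATA genes, 3 of 6 varied, and each had its own order of lines. GATA6 read 8.01, 8.08 and 8.26 in IGROV1, 6.05, 5.88 and 6.01 in the SKOV3-labelled arrays, and 2.14 to 2.82 in TOV112D and TOV21G. IGROV1 was higher than the mean of the other lines by 4.48 ± 0.12 (adjusted p = 9.6e-12), and by 2.07 with the mean of the probe sets. The step from IGROV1 to the SKOV3-labelled arrays was 2.13 ± 0.14 (adjusted p = 5.2e-08), and TOV112D and TOV21G were not separated (0.17 ± 0.14, adjusted p = 0.36). The call of GATA6 as higher in the SKOV3-labelled arrays (by 1.63 ± 0.12) ended with the mean of the probe sets, at 0.91.

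GATA3, a factor of T cells and of luminal and trophoblast epithelium, was the reverse in IGROV1, with 3.86, 2.99 and 3.57 there, and read 8.498, 8.145 and 8.240 in TOV112D and 5.85 to 6.27 on the 6 arrays of the other lines. TOV112D was higher by 3.11 ± 0.15 (adjusted p = 2.8e-09) and IGROV1 lower by -3.32 ± 0.15 (adjusted p = 1.6e-09, and -1.88 with the mean of the probe sets). GATA2, a factor of blood progenitors and of the uterus, read 9.36, 9.38 and 9.40 in TOV112D, 8.34, 8.37 and 8.26 in IGROV1, 6.96, 6.79 and 6.86 in TOV21G, and 5.96, 5.89 and 5.70 in the SKOV3-labelled arrays. TOV112D was higher by 2.37 ± 0.06 (adjusted p = 6.7e-12) and the SKOV3-labelled arrays lower by -2.34 ± 0.06 (adjusted p = 7.8e-12). With the mean of the probe sets these were 1.40 and -1.27. All 4 lines were separated from each other for GATA2. The difference of TOV21G, -0.99, missed the minimum for a call and passed it with centred arrays (-1.12), with quantile normalization (-1.04), without SKOV3 replicate 3 (-1.01), without TOV21G replicate 1 (-1.03) and without the SKOV3-labelled arrays (-1.99), and that of IGROV1, 0.96, passed it with centred arrays (1.01).

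GATA1, the erythroid factor, and GATA5, a factor of heart and gut, did not vary, at 4.70 to 5.07 and 2.92 to 3.39 over the 12 arrays. GATA4 depended on the probe set. Its brightest probe set read 5.16 to 5.86 on all 12 arrays, with 5.57, 5.44 and 5.86 in the SKOV3-labelled arrays. Another one read 5.85, 5.71 and 5.68 in these arrays and 2.38 to 2.98 on the other 9. Fitted among all 41091 probe sets with 1 gene, it was higher in these arrays by 3.02 ± 0.10 (limma, adjusted p = 9.2e-11). The other 3 GATA4 probe sets did not vary. Which probe set follows the transcript was not tested.

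**Figure D3:**
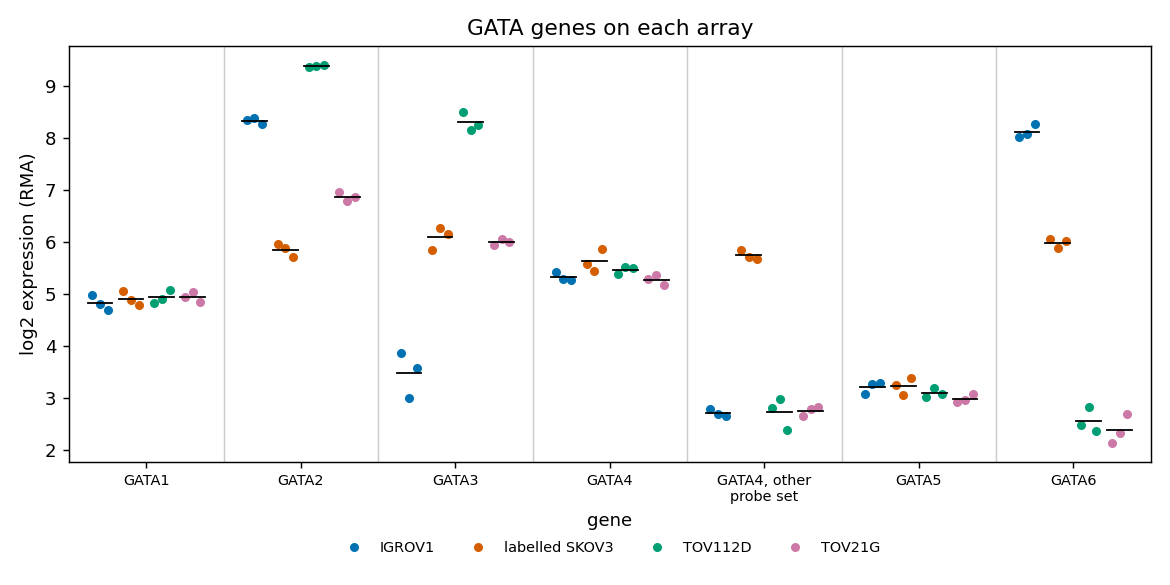
GATA genes on each array, with GATA4 by its brightest probe set and by the other one described. Points are single arrays coloured by line, black bars are means of 3 arrays, and the y axis is log2 expression, to be compared between lines within a probe set only. GATA6 is highest in IGROV1, GATA2 and GATA3 in TOV112D, and GATA4 by its other probe set in the SKOV3-labelled arrays.

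Partners and gonadal targets of GATA factors were mostly below the median of all values. Of 15 measured, 2 were higher in TOV112D and 1 in TOV21G, and 2 were lower in IGROV1 and 1 in the SKOV3-labelled arrays. The list's medians ran from -0.12 to 0.04, against -0.02 to 0.01 over all genes. Per direction in a line, 5.15% to 8.01% of all genes were called. Without the SKOV3-labelled arrays the call in TOV21G ended, and leaving out 1 of IGROV1 replicate 3, SKOV3 replicate 1, TOV112D replicate 1 or TOV21G replicate 3 made 2 calls in the SKOV3-labelled arrays. The higher ones in TOV112D were TRPS1, an atypical GATA-type repressor (10.18, against 8.26 in TOV21G and 5.54 or less in the rest), and INHBA, the activin subunit gene (8.66, against 6.62 or less). The cofactor gene ZFPM1 was at 5.63 to 6.58, and ZFPM2 at 2.12 to 2.34. Endoderm genes known as FOXA, HNF and GATA targets gave 5 of 15 higher and 1 lower in TOV21G, 3 and 1 in the SKOV3-labelled arrays, 1 and 4 in IGROV1, the line with the highest GATA6, and 1 and 5 in TOV112D. Their median differences were 0.16, 0.13, -0.07 and -0.18, against -0.02 to 0.01 over all genes. The called share of all genes was again 5.15% to 8.01% per direction. FGB, a fibrinogen chain, was at 10.67 in TOV21G and at 3.06 or less elsewhere, and the laminin gene LAMA1 at 8.59 against 6.96 in the SKOV3-labelled arrays and 3.07 or less in the rest. AFP, the fetal serum protein gene, was at 7.96 in the SKOV3-labelled arrays and at 4.09 or less elsewhere (higher by 4.05 ± 0.08, adjusted p = 8.7e-13). ALB, APOB and APOA2 stayed at 3.25 or less in all lines.

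SOX genes were led by the SKOV3-labelled arrays and by TOV112D. SOX9, the SOXE factor of cartilage, gonad and ductal epithelium, read 10.38, 10.42 and 10.45 in the SKOV3-labelled arrays, 7.85, 8.21 and 8.15 in TOV21G, 5.63, 5.66 and 5.65 in IGROV1, and 4.74, 4.86 and 4.85 in TOV112D. The groups did not overlap, and the SKOV3-labelled arrays exceeded the mean of the other lines by 4.24 ± 0.07 (adjusted p = 1.6e-13). SOX5, a SOXD partner of SOX9 in cartilage, read 6.85, 6.50 and 6.84 in these arrays and 2.45 to 3.33 on the other 9 (higher by 3.92 ± 0.12, adjusted p = 2.7e-11, and by 1.35 with the mean of its probe sets). SOX6, the other SOXD partner, was at 6.18 in the SKOV3-labelled arrays and 5.89 in TOV112D, which were not separated (0.29 ± 0.23, adjusted p = 0.34), and at 5.28 in TOV21G and 4.67 in IGROV1. By another SOX6 probe set the SKOV3-labelled arrays were at 5.56 and the other lines, TOV112D included, at 4.99 to 5.145. SOX13, the third SOXD gene, was at 7.57 and 7.56 in IGROV1 and the SKOV3-labelled arrays and at 5.97 and 5.99 in TOV112D and TOV21G.

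SOX7, a SOXF gene of endothelium and endoderm, was at 5.33 in the SKOV3-labelled arrays and 3.41 to 4.18 in the other lines (higher by 1.52 ± 0.14, adjusted p = 1e-06). SOX3, a SOXB1 gene of neural and germ cells, was at 5.65 ± 0.23 in IGROV1 and 5.80 ± 0.08 in the SKOV3-labelled arrays, and at 2.99 ± 0.15 and 2.85 ± 0.05 in TOV112D and TOV21G. The upper pair was not separated (-0.15 ± 0.11 (SE), adjusted p = 0.28). SOX14 was at 4.16 in the SKOV3-labelled arrays and 3.003 or less in the others, below the median of all values throughout.

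TOV112D held SOX11 and SOX8. SOX11, a SOXC factor of neural progenitors, read 8.49, 8.38 and 8.45 in TOV112D and 2.61 to 4.88 on the other arrays (higher by 5.01 ± 0.09, adjusted p = 2.8e-13). The SKOV3-labelled arrays came next at 4.69, which was 1.84 ± 0.11 above TOV21G (adjusted p = 2e-08). SOX8, a SOXE gene, read 6.09, 5.81 and 6.05 in TOV112D and 2.35 to 2.79 elsewhere (higher by 3.43 ± 0.07, adjusted p = 8.6e-13). SOX8 was thus highest in the line where its paralogue SOX9 was lowest. SOX18, like SOX7 a SOXF gene, was at 3.99 in TOV112D and 3.002 or less in the rest. SOX4, the SOXC paralogue of SOX11, was bright on every array, at 10.96 to 11.75, and with a range of 0.73 did not vary by the rule. By another SOX4 probe set IGROV1 was lower by -1.34 ± 0.06 (adjusted p = 1.2e-09), at 9.46 against 10.32 to 11.09.

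**Figure D4:**
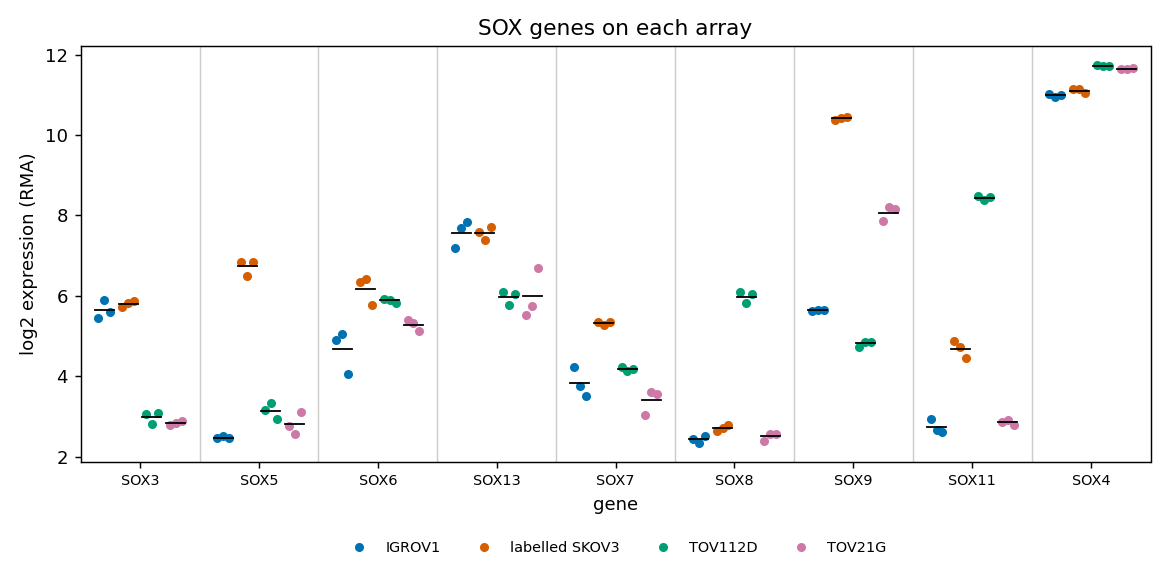
SOX genes on each array. Points are single arrays coloured by line, black bars are means of 3 arrays, and the y axis is log2 expression, to be compared between lines within a gene only. SOX5, SOX7 and SOX9 are highest in the SKOV3-labelled arrays and SOX8 and SOX11 in TOV112D, SOX3 and SOX13 are higher in IGROV1 and the SKOV3-labelled arrays than in the TOV lines, and SOX4 lies between 10.96 and 11.75 on all arrays.

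SOX1, SOX10, SOX12, SOX15, SOX21 and SOX30 did not vary, with ranges of 0.15 to 0.74. For SOX1 another probe set was at 4.22 in TOV21G and 2.49 to 2.57 elsewhere (higher by 1.70 ± 0.11, adjusted p = 7.6e-08), a mean below the median of all values.

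Cartilage targets of SOX9 gave 5 of 12 higher and 2 lower in the SKOV3-labelled arrays, 0 and 5 in IGROV1 and 2 and 3 in TOV112D. Of all genes, 5.15% to 8.01% were called per direction in a line. The list's medians were 0.13 in the SKOV3-labelled arrays, -0.54 in IGROV1, -0.13 in TOV112D and -0.06 in TOV21G, against -0.02 to 0.01 over all genes. The collagen genes COL2A1 and COL9A3 were at 10.09 and 7.85 in the SKOV3-labelled arrays and at 3.93 or less and 4.24 or less in the other lines, higher by 6.51 ± 0.10 and 3.75 ± 0.15 (adjusted p = 9.5e-14 and 5e-10). MIA was at 7.18 against 5.42 or less. COL11A1 was high both there (9.89) and in TOV112D (10.95), where SOX9 was lowest. HAPLN1 was at 8.29 in TOV112D and 4.85 or less elsewhere, and was called lower in the SKOV3-labelled arrays (by -1.28 ± 0.07). ACAN, the aggrecan gene, stayed between 5.27 and 5.59, COL11A2 between 5.53 and 5.62 and MATN1 between 4.19 and 4.28. In TOV21G, the line next in SOX9, 1 target was higher and 4 lower, and the higher one was COMP, a cartilage matrix gene, at 12.55 against 5.80 or less. SOX10, the melanocyte and glial SOXE factor, was at 5.09 to 5.44 in all lines, and of 9 targets measured 4 were higher and 1 lower in the SKOV3-labelled arrays (2 and 1 with the mean of the probe sets). The lower one was MITF, the melanocyte master factor gene, at 4.46 against 9.95 to 10.46, while PAX3 was higher at 7.74 against 5.85 or less. The other higher ones were PMEL, a pigment granule gene, at 5.99 against 4.53 to 4.65 (higher by 1.38 ± 0.08, adjusted p = 1.7e-08), the receptor gene ERBB3, at 7.18 against 5.72 to 6.23, and S100B, at 4.21 against 2.72. TYR and MLANA, the other melanocyte markers, lay between 3.32 and 4.73 in all lines. IGROV1 had 2 of the 9 higher and 1 lower, TOV112D 2 and 0 (TYRP1, at 4.24 against 2.49 or less, and MITF; without dim genes MITF alone), and TOV21G 1 and 1. The lower one in TOV21G was PAX3, at a difference of -1.01, and its call ended with the mean of the probe sets and with any 1 of IGROV1 replicate 1, SKOV3 replicate 1, TOV112D replicate 1, TOV21G replicate 1 or TOV21G replicate 3 left out. With all SKOV3-labelled arrays left out, neither it nor MITF, the higher one, was called in TOV21G. The medians of the 9 SOX10 targets were -0.41 in IGROV1, -0.02 in the SKOV3-labelled arrays, -0.01 in TOV112D and -0.41 in TOV21G. Over all genes the medians were -0.02 to 0.01, and 5.15% to 8.01% were called per direction in a line.

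Other HMG-box genes gave 3 of 12 higher and 2 lower in TOV112D, 2 and 1 in the SKOV3-labelled arrays, where 1 was higher with the mean of the probe sets, 0 and 1 in IGROV1, and 0 and 2 in TOV21G. With the SKOV3-labelled arrays left out, 2 were higher and 1 lower in TOV112D, and 1 and 1 in IGROV1. The list's medians were -0.02 in TOV112D, 0.52 in the SKOV3-labelled arrays, -0.01 in IGROV1 and -0.23 in TOV21G. Over all genes the medians were -0.02 to 0.01, and 5.15% to 8.01% were called per direction in a line. LEF1, a Wnt effector, was at 9.47 in TOV112D and 7.84 in the SKOV3-labelled arrays and at 3.28 or less in the other lines. HMGB1 stayed between 12.84 and 12.93.

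KLF genes varied in 11 of 17 cases. KLF5, a factor of proliferating epithelium, had the widest range of the family, with 10.27, 10.12 and 9.86 in IGROV1, 8.69, 8.65 and 8.55 in TOV21G, 5.65, 5.80 and 5.40 in the SKOV3-labelled arrays, and 3.70, 4.15 and 3.60 in TOV112D. IGROV1 was higher than the mean of the others by 4.06 ± 0.12 (adjusted p = 3.4e-11) and TOV112D lower by -4.29 ± 0.12 (adjusted p = 1.8e-11). KLF4, its relative of differentiated epithelium and pluripotent cells, shared the high pair, at 6.33 ± 0.15 in IGROV1 and 6.34 ± 0.07 in TOV21G, which were not separated (-0.01 ± 0.14 (SE), adjusted p = 0.97). It read 2.96, 2.70 and 2.85 in the SKOV3-labelled arrays, lower by -3.02 ± 0.12 (adjusted p = 3.1e-10, and -1.62 with the mean of its probe sets), and 4.92 ± 0.34 (SD) in TOV112D.

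KLF7, a factor of neurons and adipocytes, ran against KLF4 and KLF5. It read 8.89, 8.73 and 8.79 in the SKOV3-labelled arrays, 6.71 ± 0.10 (SD) in TOV112D, 5.41 ± 0.14 in TOV21G, and 3.55, 3.38 and 3.97 in IGROV1. The SKOV3-labelled arrays were higher by 3.56 ± 0.11 (SE, adjusted p = 2.9e-11) and IGROV1 lower by -3.34 ± 0.11 (adjusted p = 5.6e-11). KLF6, an injury-response gene, was at 8.85 in the SKOV3-labelled arrays and at 10.44 to 11.29 in the other lines (lower by -1.91 ± 0.06, adjusted p = 6.1e-11). KLF2, the shear-stress factor of endothelium, was at 7.33 and 7.38 in the SKOV3-labelled arrays and TOV112D, and at 6.02 and 6.01 in IGROV1 and TOV21G. KLF1, the erythroid factor, was at 3.05 to 3.19.

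The KLF genes whose proteins bind the corepressor CtBP each had a different low line. KLF12 read 3.33, 2.89 and 3.24 in TOV21G and 6.48 to 6.87 on the other 9 arrays (lower by -3.53 ± 0.09, adjusted p = 1e-11). With the mean of its probe sets the difference was -0.99, just under the minimum for a call. KLF3 read 7.41, 7.34 and 7.47 in TOV112D and 8.77 to 9.05 elsewhere (lower by -1.51 ± 0.06, adjusted p = 3.3e-10, and -0.70 with the mean, under the minimum). KLF8 was at 2.80 in IGROV1, 3.74 in the SKOV3-labelled arrays, 5.04 in TOV112D and 5.54 in TOV21G, with each line separated from the next.

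Among the KLF genes whose proteins bind Sin3, KLF13 and KLF10 varied most. KLF13 read 5.89, 5.83 and 5.81 in the SKOV3-labelled arrays and 8.62 to 9.56 elsewhere (lower by -3.16 ± 0.05, adjusted p = 9e-14, and -1.68 with the mean of its probe sets). KLF10, induced early by TGF-beta, read 10.79, 10.66 and 10.67 in TOV112D, 9.15 to 9.65 in the SKOV3-labelled arrays and TOV21G, and 8.53 to 8.59 in IGROV1 (higher in TOV112D by 1.53 ± 0.07, adjusted p = 1e-09). KLF11 ranged from 6.26 in the SKOV3-labelled arrays to 7.54 in TOV21G. KLF14, KLF15, KLF16 and KLF17 did not vary. KLF9 did not by its brightest probe set (4.41 to 4.75), but by another it was at 5.17 in IGROV1, 4.32 in TOV112D, 3.26 in TOV21G and 2.34 in the SKOV3-labelled arrays. By that probe set IGROV1 was higher by 1.86 ± 0.12 (adjusted p = 4.3e-08), and 1 more KLF9 probe set gave the same order.

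**Figure D5:**
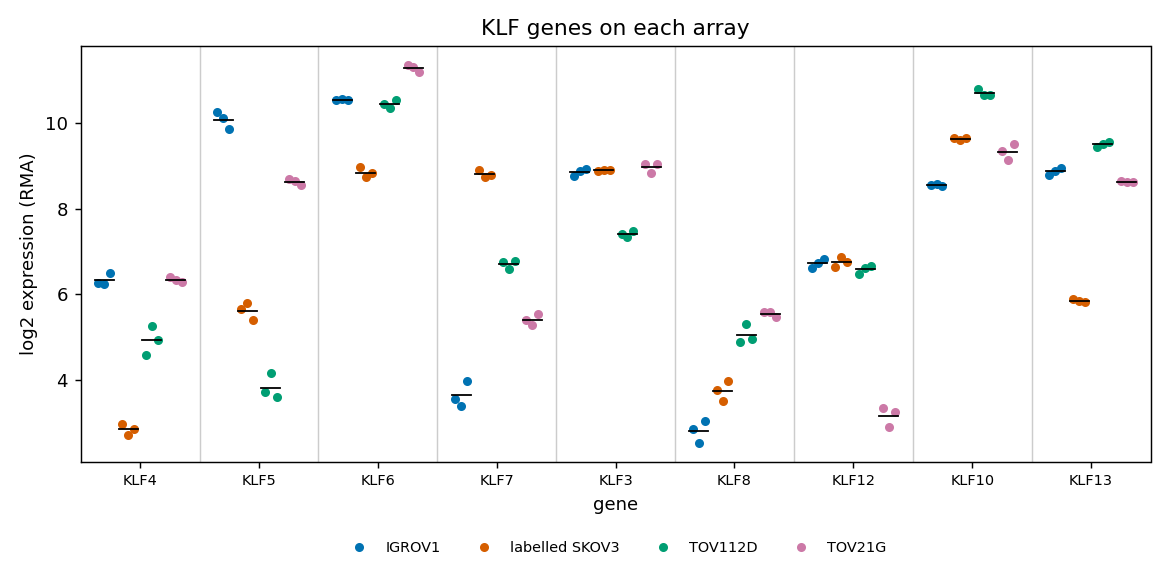
KLF genes on each array. Points are single arrays coloured by line, black bars are means of 3 arrays, and the y axis is log2 expression, to be compared between lines within a gene only. KLF5 falls from IGROV1 over TOV21G and the SKOV3-labelled arrays to TOV112D, KLF7 is highest in the SKOV3-labelled arrays and lowest in IGROV1, and KLF12 is low in TOV21G alone, by the probe set used.

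The SP genes, the nearest relatives of the KLF family, differed by less than the minimum for a call. Of 8 measured, 0 were called in any line by limma, where 5.15% to 8.01% of all genes were called per direction. An unadjusted p under 0.05 was reached by 4, 3, 3 and 4 in IGROV1, the SKOV3-labelled arrays, TOV112D and TOV21G. These also had an adjusted p under 0.05, so the minimum difference alone kept them from a call. With the mean of the probe sets 1 SP gene was called higher in the SKOV3-labelled arrays. SP1 was at 8.49 to 8.92 and SP3 at 9.83 to 10.72. SP5, SP7 and SP8 stayed at 4.15 or less.

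Antisense or divergent transcripts named after a member were measured in 15 cases, and 4 were called in at least 1 line (26.7%, against 26.3% of all genes), a share close to the background. SOX9-AS1 was at 4.18 in the SKOV3-labelled arrays and 3.56 in TOV21G, the lines with the highest and next SOX9, and at 3.09 and 2.83 in IGROV1 and TOV112D. FOXN3-AS1 was highest in TOV112D, as FOXN3 was, at 6.59 against 5.26 to 6.02. SOX21-AS1 was at 4.24 in the SKOV3-labelled arrays and 2.30 or less elsewhere, while SOX21 itself was at 3.04 to 3.23. FOXP4-AS1 was at 3.62 in the SKOV3-labelled arrays and 5.17 to 5.96 elsewhere. GATA6-AS1 stayed between 3.74 and 3.89 although GATA6 varied by 5.73.

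Most members had several probe sets (54 of 79), and 126 were not used. Of the 75 that belong to varying members, 34 varied too when fitted one by one, and 0 carried a call opposite to the probe set used in any line. Another 6 members that did not vary by the probe set used varied by another one: FOXA2, FOXO3, GATA4, KLF9, SOX1 and SOX4. The rule of the highest mean therefore left out these differences.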

How the data were processed

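Total RNA of 12 cell line samples was hybridised as biotin-labelled cRNA, per the labels' protocols. The 54675 log2 values per array were deposited by the authors, and the submitters' processing notes name RMA and affy, whose version is not given in the sources used here. RMA quantile-normalizes the arrays, so differences in total RNA content cannot be seen. Without detection calls, differences from a line with values of 2 to 3 depend on that lower limit, and the number of arrays limits the precision.

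Lines were assigned by the sample titles. Control probe sets (62) and those annotated to several genes were dropped, which left 41091 for 19775 genes, and the probe set brightest on average over the 12 arrays stood for its gene. Tests used limma 3.58.1 under R 4.3.3 (lmFit fitted to line means, 8 residual degrees of freedom, eBayes, Benjamini-Hochberg over all genes), with calls as defined in the report. On simulated data, 50 of 50 genes given a shift of 1.5 (log2) were recovered in each of the 4 comparisons of a line with the others. Among unshifted genes 0 were falsely called higher, and false lower calls were not counted. The simulated data had independent normal noise with the real spread between arrays and no other line effects. Shifts between the minimum of 1 and 1.5 were not simulated, so their recovery is not known. The result also says nothing of arrays that are technical repeats. The members and the gene lists were chosen with earlier results of these data known. Every member could be named. Values on single arrays were given for up to 5 higher and 4 lower members set apart per line, all GATA genes (for GATA4 also another probe set, chosen after its values were seen), the FOX genes of the clusters, and bright members that did not vary, and up to 4 called genes per list and line. Alternatives were averaged probe sets, no _x_at probe sets, no dim genes (highest line mean under 4.44), median-centred arrays, quantile normalization, a trended and robust prior, the replicate number as a block, each array left out, the SKOV3-labelled arrays left out, no minimum difference and, added after the data were seen, each probe set fitted alone. RefSeq tables of GRCh38.p14 gave gene order and promoter sequences.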

Additional observations from a re-analysis of the deposited data

How the results depend on the processing

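The count of varying members was 39 and stayed at 39 or 40 with any array left out. Leaving out arrays gave 24 to 27 called members in IGROV1, 21 to 22 in the SKOV3-labelled arrays, 20 to 23 in TOV112D and 21 to 23 in TOV21G, and 7 to 8, 11 to 12, 7 to 8 and 7 members set apart. With averaged probe sets, 16 members were called in IGROV1 and 14 in TOV21G, without a share of all genes under that averaging to compare. Without a minimum difference the called members were 48 in IGROV1, 44 in the SKOV3-labelled arrays, 49 in TOV112D and 49 in TOV21G, and those set apart were 13 in IGROV1, 15 in TOV112D and 16 in TOV21G, since smaller differences then count. That rule called 55.3%, 54.2%, 54.8% and 52.8% of all genes in the 4 lines in the same order, and set apart 20.2%, 21.9% and 16.8% in IGROV1, TOV112D and TOV21G. Without the SKOV3-labelled arrays, 12 members were set apart in TOV112D, where 2 other lines remained to differ from. Among the named members, KLF9 in IGROV1 was the only one to reverse: -0.23, not called, by the probe set used and 1.86 by another one.

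Same-numbered arrays showed little joint deviation: the correlations of their deviations from the line means ran from -0.10 to 0.13, and 2 of 18 pairs passed 0.1. Of the 12 arrays, 5 were closest to a same-numbered array of another line. With 3 arrays per line, these values cannot tell whether same-numbered arrays shared a batch. With the replicate block, 39 members varied, 26, 22, 22 and 22 were called in IGROV1, the SKOV3-labelled arrays, TOV112D and TOV21G, and 7, 12, 7 and 7 were set apart, and no call of a named member changed. The 3 arrays per line and the lack of detection calls limit what can be said of genes near the floor.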
